A study of Homo sapiens with 10 samples.

Results

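The zinc finger genes of chromosome 19 were followed by SLAM-seq in 22RV1, an established prostate cancer cell line that grows without androgen. The group comprised every protein-coding gene on chromosome 19 whose symbol is ZNF followed by a number. The annotation holds 246 such genes, of which 241 had a 3′ end interval in the deposited files, out of 31015 genes with an interval in all. Where intervals of a gene overlapped, the best-covered one was kept, which left 421 intervals for the 241 genes. Of these genes, 130 lie on the plus strand and 130 had a single kept interval. The cells formed 5 groups of 2 libraries each. Control cells are labelled control, with no dose given, and the methods name no vehicle for them. The other groups received for 4 h either 20 µM SRPIN340, an inhibitor of the splicing kinases SRPK1 and SRPK2, or 50 µM Endovion (SCO-101), which the study tests as an SRPK1 inhibitor, or THZ531, a covalent inhibitor of CDK12 and CDK13, or THZ531 and Endovion together. The dose of THZ531 is given as 100 nM in the methods and as 150 nM in the text of the series. All cells, the control cells included, were labelled with 4-thiouridine for the last 10 min, and alkylated label is read as a T>C conversion. The number of T>C reads at a gene therefore served as its nascent RNA, the number of all reads as its total RNA, and T>C reads as a percent of all reads as its labelled share. No library without 4-thiouridine was analysed here, so background conversions could not be taken off. 22RV1 is a single line grown in culture, and nothing in the labels says that the 2 libraries of a group come from separate cultures, so p-values measure only the spread between these libraries, which may be technical.

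ZNF proteins of the C2H2 type bind DNA through tandem zinc fingers, and most of those encoded on chromosome 19 also carry a KRAB domain. The KRAB domain recruits TRIM28 (KAP1), which in turn brings the methyltransferase SETDB1, HP1 proteins and histone deacetylases and so sets up silent chromatin. Many of these proteins silence transposable elements, and their genes lie in clusters that grew through tandem duplication. CDK12 phosphorylates the C-terminal domain of RNA polymerase II, and the kinase is known to support elongation and to keep cleavage and polyadenylation sites inside introns from being used.

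The members took 0.264% to 0.365% of the gene reads of a library, which ranged from 19315398 to 30047663, and had between 4032 and 7126 T>C reads per library. The members tested in total RNA had a median of 165.5 reads per control library, and those tested in nascent RNA a median of 19 T>C reads. Of the 241 members, 216 had enough reads to be tested in total RNA and 136 in nascent RNA, 6 had no read in any library, and 211 had a read in all 10. All 11 markers of prostate epithelium that were looked up had reads in every library (summed level 1557 to 1970 RPM, the reads of a gene scaled to a common library size). Of 14 markers of other cell types 5 were at 0, and their summed level was 3.84 to 6.40 RPM. In bulk libraries brought to a common size, fewer cells with a transcript and less of it per cell cannot be told apart. The best-covered intervals of ZNF443 and ZNF799 share 449 aligned bases at 98.2% identity and those of ZNF426 and ZNF543 share repeats with other genes, so reads of these 4 members are uncertain. Only the best-covered interval of each protein-coding gene was compared, so other intervals and other kinds of genes were not searched. Intervals of 21 members overlap those of another gene, 11 of them on the same strand.

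In control cells ZNF428 stood apart from every other member. This gene at chr19:43607224-43619629, minus strand had 14229 and 14506 reads, or 507 and 610 RPM, and 2561 and 2701 T>C reads, which made 38.9% ± 4.2 (SD, n = 2) of the T>C reads of all members. Its T>C level of 1908 ± 367 RPM (SD, n = 2) was followed by ZNF507 at 118 ± 11.3, ZNF331, an imprinted gene, at 104 ± 35.8, ZNF791 at 100 ± 13.6 and ZNF566 at 76.3 ± 12.4. These levels are scaled to the T>C reads of the library and not per length. ZNF331 overlapped ZNF507 and ZNF791 between the control libraries. Of the 85 members with at least 200 reads in both control libraries, the median labelled share was 5.17%, against 4.78% for 8046 protein-coding genes of that depth. The 5 highest shares were those of ZNF550 (25.3% ± 0.440, SD, n = 2), ZNF507 (19.7% ± 3.99), ZNF428 (18.3% ± 0.439), ZNF302 (17.5% ± 3.001) and ZNF682 (17.3% ± 3.78). ZNF865 had the lowest share (0.959% ± 1.06), followed by ZNF581 (1.18% ± 0.146), ZNF580 (1.32% ± 0.448), ZNF787 (1.46% ± 0.369) and ZNF358 (1.96% ± 0.105). After the same 10 min pulse the labelled share of ZNF550 was thus far above that of ZNF581 in both control libraries. The depth behind these shares was 402 and 204 reads for ZNF550 and 557 and 623 for ZNF581.

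The first question was how these genes respond to THZ531. With THZ531 the total RNA of 83 of the 216 members fell and that of 19 rose at an adjusted p under 0.05 (edgeR quasi-likelihood test, Benjamini-Hochberg adjustment over all genes). Among all 14689 genes tested 14.1% fell and 16.6% rose. The median log2 fold change was -0.51 for the members and -0.01 for all genes, and it was -0.27 for 219 ZNF genes of other chromosomes, of which 65 fell and 36 rose, and -0.13 for 753 other protein-coding genes of chromosome 19, of which 106 fell and 51 rose. Summed over the members other than ZNF428, total RNA was 2768 ± 48.7 RPM in control cells and 2215 ± 80.8 with THZ531 (SD, n = 2). ZNF428 itself was at 675 and 612 RPM with THZ531 and its log2 fold change of 0.20 ± 0.13 did not pass (adjusted p = 0.244). Without the second THZ531 library, 55 members fell and 9 rose.

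**Figure D1:**
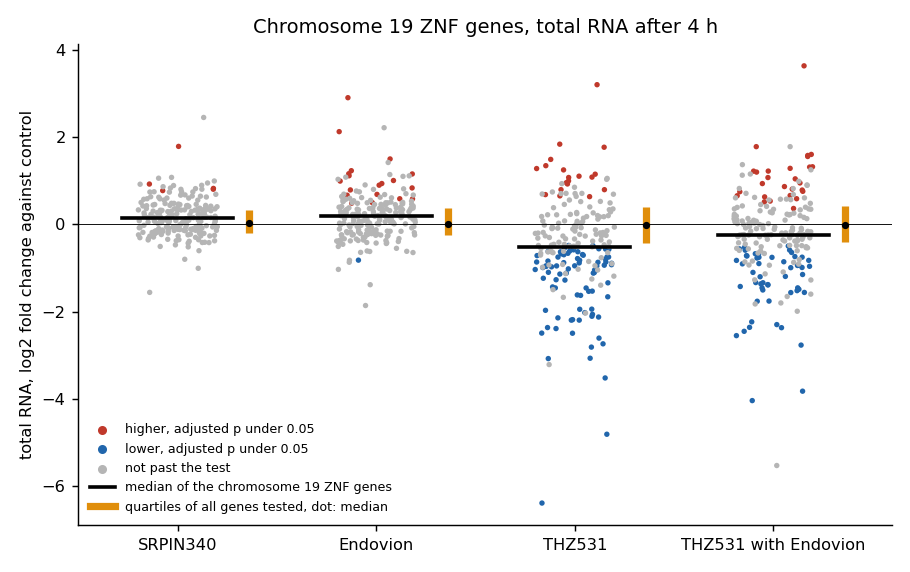
Log2 fold change of total RNA against control (vertical axis) for the 216 chromosome 19 ZNF genes tested, one dot per gene, with each of 4 treatments. Black lines are the members' medians, from 0.19 with Endovion to -0.51 with THZ531, and orange bars the quartiles of all 14689 genes tested. The blue dots, genes past the test and lower, number 83 with THZ531 and 53 with THZ531 and Endovion.

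Of the members that fell, ZNF566 had the smallest p (chr19:36445119-36489902, minus strand). Its total RNA stood at 40.2 and 46.2 RPM in the control libraries and at 8.55 and 10.6 with THZ531, a log2 fold change of -2.18 ± 0.17, adjusted p = 1.39e-06 (SE; edgeR). ZNF347 stood at 20.9 and 20.4 RPM in control and 5.01 and 4.45 with THZ531 (-2.12 ± 0.18, adjusted p = 2.21e-06, edgeR). The groups did not overlap for either gene. ZNF793 went from 50.2 and 53.8 to 19 and 18.9 RPM (-1.46 ± 0.14, adjusted p = 6.46e-06, edgeR). ZNF557 went from 36.5 and 32.9 to 10.1 and 7.88 (-1.94 ± 0.20, adjusted p = 9.45e-06, edgeR). ZNF791, the most read of these 6, went from 103 and 119 to 56.2 and 38.3 (-1.23 ± 0.15, adjusted p = 5.31e-05, edgeR). ZNF320 completed the set at 37.9 and 37.5 in control and 19.4 and 15.3 with THZ531. In all 6 genes both treated libraries lay below both control libraries, which their choice by small p made likely. The same held for 122 of the 216 members and for 32.3% of all genes tested.

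Among the 19 members that rose, ZNF738 (chr19:21358930-21388582, plus strand) had the smallest p. It stood at 6.81 and 6.77 RPM in control and 17.9 and 28.6 with THZ531 (1.77 ± 0.22, adjusted p = 4.20e-05, edgeR). ZNF587B rose from 16.2 and 14.8 to 42.4 and 44.9 (1.49 ± 0.19, adjusted p = 5.14e-05, edgeR). Its close neighbour ZNF587 on the same strand fell from 35.5 and 40.7 to 24 and 19.7 (-0.80 ± 0.17, adjusted p = 0.00247, edgeR). ZNF493, ZNF726, ZNF708 and ZNF529 rose by 0.96 to 1.15 on the log2 scale. ZNF708 stood at 18.9 and 11.5 RPM in control and 32.5 and 33.2 with THZ531, so the 2 control libraries differed by more than the 2 treated ones. The largest log2 fold change among the members that rose was that of ZNF227 (chr19:44207547-44237268, plus strand; 3.20 ± 0.51, adjusted p = 0.00473, edgeR), whose control libraries stood at 5.7 and 1.64 RPM against 27.5 and 41.6 with THZ531.

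**Figure D2:**
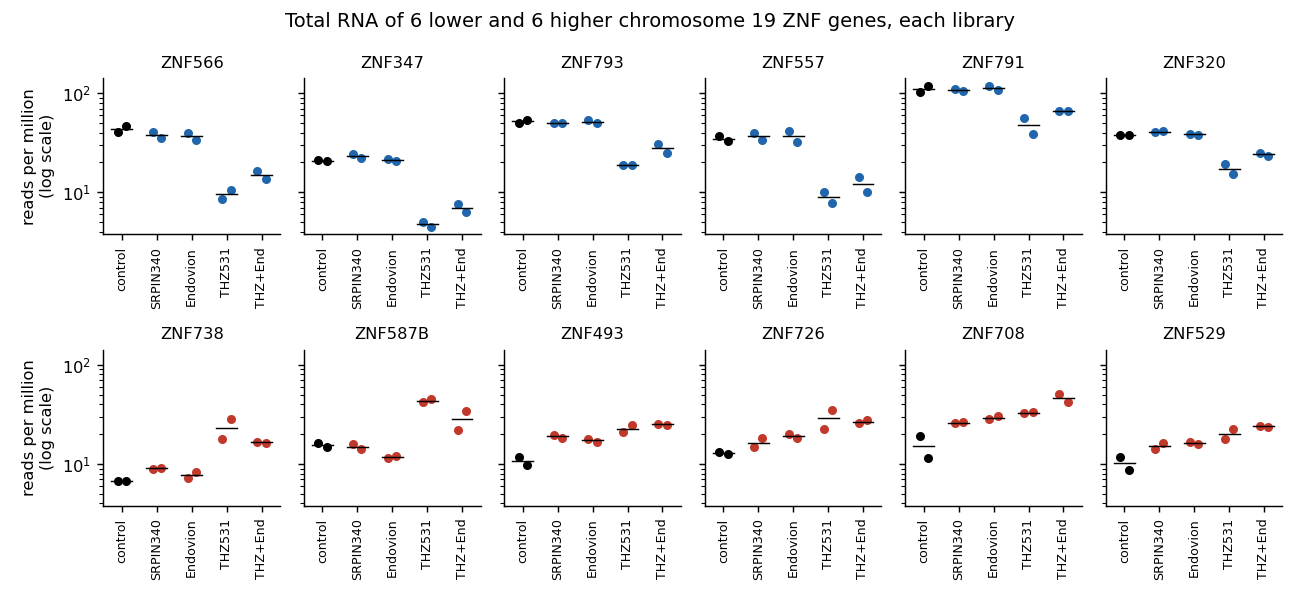
Total RNA in RPM (log scale) of the 6 members that fell and the 6 that rose with THZ531 with the smallest p, one dot per library and a line at the mean of each group of 2; THZ+End is THZ531 with Endovion. In the upper row THZ531 sits below control in every library, from ZNF791 at 56.2 and 38.3 to ZNF347 at 5.01 and 4.45 RPM.

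Of the 10 members with a textbook role, 2 fell with THZ531 and none rose past the test. Among all genes tested 14.1% fell and 16.6% rose, and so short a list cannot be told from that. ZNF382, a KRAB repressor described as a tumour suppressor, fell from 4.28 and 3.7 to 0.848 and 1.02 RPM (-2.10 ± 0.31, adjusted p = 1.85e-04, edgeR). ZNF274, which brings SETDB1 to the 3′ ends of zinc finger genes, fell from 6.2 and 6.77 to 3.91 and 4.24 (-0.67 ± 0.24, adjusted p = 0.044, edgeR). ZNF91, the repressor of SVA elements, had 15 and 19.4 in control and 14 and 10 with THZ531 and did not pass (adjusted p = 0.0757, edgeR). ZNF93, which acts on LINE-1 elements, differed by -0.18 ± 0.26 on the log2 scale, ZNF304 by -0.22 ± 0.21 and the imprinted ZNF331 by -0.19 ± 0.16, and none of them passed. ZNF146, which consists of zinc fingers without a KRAB domain, had 57.9 and 45.7 RPM in control and 70.5 and 145 with THZ531 and did not pass either, and its treated libraries lay far apart. ZNF675 had a log2 fold change of 0.53 ± 0.23 and did not pass with THZ531 alone. ZNF558 held 19 and 3 reads in the control libraries and did not pass (adjusted p = 0.95, edgeR), and ZNF85 had no read in either control library and was not tested.

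In nascent RNA 14 of the 136 members tested fell with THZ531 and 5 rose, against 3.6% and 3.86% of 9946 genes. The members' median log2 fold change was -0.46, that of all genes -0.02. Of 152 ZNF genes of other chromosomes 10 fell and 6 rose, with a median of -0.17. ZNF566 again led, with 105 and 106 T>C reads in control and 24 and 12 with THZ531 (-2.42 ± 0.39, adjusted p = 1.42e-05, edgeR). ZNF302 had 57 and 50 T>C reads in control and 7 and 7 with THZ531 (-2.74 ± 0.51, adjusted p = 1.74e-04, edgeR). ZNF507, second in T>C level in control, had 171 and 157 in control and 82 and 34 with THZ531 (-1.39 ± 0.27, adjusted p = 2.49e-04, edgeR). ZNF791 (-1.27 ± 0.28) and ZNF682 (-1.44 ± 0.32) also fell. ZNF780B fell to 4 and 1 T>C reads from 38 and 28. The 5 genes that rose were ZNF227, ZNF726, ZNF493, ZNF738 and ZNF529. ZNF726 had 33 and 11 T>C reads in control and 70 and 76 with THZ531 (1.97 ± 0.40, adjusted p = 6.07e-04, edgeR). ZNF493 had 28 and 26 T>C reads in control and 55 and 75 with THZ531 (adjusted p = 0.0111, edgeR). Without the second THZ531 library 3 members fell and 1 rose, and without the first control library 10 fell and 2 rose.

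T>C reads are part of the total reads, so both measures share counts. Every one of the 19 members called in nascent RNA was also called in total RNA, and 58 more were called in total RNA only. Of the 83 members lower in total RNA, 61 could be tested in nascent RNA, where 55 had a value below 0 and 14 passed. Of the 19 higher in total RNA, 16 could be tested, 1 had a value below 0 and 5 passed. The matching counts over all genes were not made, so these describe the members only. The labelled share was tested as T>C reads against unconverted reads, each scaled by its own library size. A change in share common to all genes was thus taken out, and the test asks whether a gene departs from it. Pooled over all genes, the mean share was 5.66% in control cells (n = 2). In the treated groups it ran from 5.11% with Endovion to 5.43% with THZ531. No member passed in this test with any treatment, at an adjusted p under 0.05 in edgeR or in DESeq2. Over all 9946 genes 0.342% passed with THZ531, 1.02% with THZ531 and Endovion, 0.442% with Endovion and 0.181% with SRPIN340. At an unadjusted p under 0.05 15, 14, 12 and 11 of the 136 members passed, which is near the 10.1%, 12.1%, 9.32% and 8.14% of all genes. The smallest p with THZ531 belonged to ZNF845 and ZNF562 above 0 and to ZNF507 and ZNF302 below 0. ZNF302 had a log2 difference in share of -1.72 ± 0.62 (adjusted p = 0.296, edgeR) and ZNF507 of -0.89 ± 0.30 (adjusted p = 0.254). ZNF562 held more of its label with THZ531 by 0.73 ± 0.28, which missed the threshold too (adjusted p = 0.32, edgeR).

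**Figure D3:**
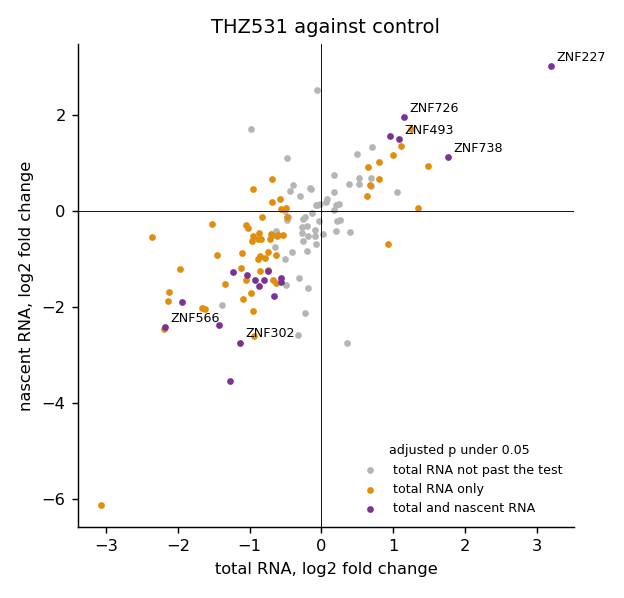
Log2 fold change of nascent RNA (vertical axis) against that of total RNA (horizontal axis) with THZ531 for the 136 members tested in both, one dot per gene. The 19 purple genes passed in both measures and the 58 orange genes in total RNA only. The measures share counts.

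With THZ531 and Endovion together 53 members fell in total RNA and 27 rose, against 12.4% and 16.6% of all genes. The members' median was -0.23. Of the 219 ZNF genes of other chromosomes 52 fell and 39 rose, with a median of -0.19, so the members were close to them here. Of the 83 that fell with THZ531 alone 46 also fell with both compounds, and of the 19 that rose 16 also rose. These 2 comparisons share the control libraries. The matching overlap over all genes was not counted, so these counts describe the members only. ZNF566 stood at 16.5 and 13.6 RPM, above its level with THZ531 alone and below control (-1.52 ± 0.17, adjusted p = 2.80e-05, edgeR). ZNF347 stood at 7.63 and 6.38 (-1.56 ± 0.18, adjusted p = 3.22e-05, edgeR), and ZNF557 and ZNF793 followed by p. ZNF576 fell to 7.67 and 12.7 from 26.8 and 28.6 in control. ZNF546 had 3 and 2 reads against 70 and 37 in control (adjusted p = 4.05e-04, edgeR). ZNF708 led the genes that rose, at 50.5 and 42.3 RPM (1.60 ± 0.19, adjusted p = 5.12e-05, edgeR). ZNF493, ZNF529, ZNF738, ZNF350 and ZNF726 followed, with log2 fold changes from 1.04 to 1.56. ZNF350 (ZBRK1), known as a partner of BRCA1 in repression, stood at 1.82 and 1.77 in control and 6.05 and 4.5 with both compounds. ZNF675 rose as well (1.07 ± 0.23, adjusted p = 0.003, edgeR). In nascent RNA 8 of 136 members fell and 5 rose, against 3.49% and 4.61% of all genes. Of 152 ZNF genes of other chromosomes 16 fell and 5 rose. ZNF566 had the smallest p among those that fell (10 and 16 T>C reads; -2.66 ± 0.40, adjusted p = 3.43e-06, edgeR), along with ZNF507, ZNF587, ZNF611, ZNF302 and ZNF550. ZNF227, ZNF726, ZNF708, ZNF529 and ZNF493 rose. Without the first library of the combined treatment 33 members fell and 16 rose in total RNA, and without the second control library 40 fell and 13 rose. In nascent RNA the calls numbered 8 without the first control library and 5 without the second, and 5 without either library of the combined treatment.

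The design also asks whether Endovion altered the effect of THZ531. In total RNA no member passed the test of that difference, against 0.00681% of all genes in edgeR, and 26 of the 216 members had an unadjusted p under 0.05, as did 1905 of the 14689 genes. DESeq2 called 1 member and 1.23% of all genes. The median difference was 0.14 on the log2 scale for the members and -0.01 for all genes. ZNF571 (-1.89 ± 0.48, adjusted p = 0.228) and ZNF227 (-2.47 ± 0.67) had the smallest p below 0 and did not pass. Above 0, ZNF566 had the smallest p with a difference of 0.90 ± 0.24 (adjusted p = 0.236, edgeR), followed by ZNF562 (0.55 ± 0.17, adjusted p = 0.244). Without the first control library or the first THZ531 library 5 members passed. In nascent RNA ZNF227 alone passed, below 0, where 0.282% of all genes did (-3.19 ± 0.73, adjusted p = 0.028, edgeR). Its T>C reads numbered 9 and 1 in control, 47 and 55 with Endovion, 41 and 32 with THZ531 and 45 and 42 with both. All 6 treated libraries lay above both control libraries, and the 2 with THZ531 alone were the lowest of the 6. The difference did not pass without the second control library (adjusted p = 0.281, edgeR), the second THZ531 library (0.274), the first or second Endovion library (0.0643 and 0.156) or the first or second library of the combined treatment (0.133 and 0.102).

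Endovion alone raised 19 members in total RNA and lowered 1, against 8.9% and 2.54% of all genes. Here the members' share of rises was that of the background, and their median was 0.19 against 0.02 for all genes. ZNF571 stood at 1.39 and 0.715 RPM in control and 5.17 and 4.15 with Endovion (2.13 ± 0.35, adjusted p = 0.00254, edgeR). ZNF254 stood at 5.42 and 4.25 in control and 12 and 10.7 with Endovion (1.23 ± 0.21, adjusted p = 0.00311, edgeR). ZNF350 rose to 5.55 and 4.6, ZNF708 to 28.1 and 30.4, ZNF548 to 12.8 and 9.3 and ZNF551 to 31.9 and 22.7 RPM. ZNF576 was the member that fell, from 26.8 and 28.6 to 15.3 and 16.2 (-0.82 ± 0.21, adjusted p = 0.0238, edgeR). Without the second control library 2 members were called and without the first or the second Endovion library 4 and 5. In nascent RNA ZNF227 and ZNF726 rose with Endovion, 2 of 136 members against 2.04% of all genes. Only 1 member passed without the second control library, the second Endovion library or any single library with THZ531.

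SRPIN340 raised 5 members in total RNA and lowered none, against 1.82% and 0.143% of all genes in edgeR, and 3 members (1.39%) were lower at an unadjusted p under 0.05, against 5.21% of all genes. The 5 that rose were ZNF571 (3.44 and 3.94 RPM, 1.79 ± 0.35, adjusted p = 0.0234, edgeR), ZNF493 (19.7 and 18.5), ZNF254 (9.24 and 9.18), ZNF551 (24.4 and 29.2) and ZNF708 (26 and 26.3). Between 0 and 13 members were called when a library was left out, with 13 without the first control library, 1 without the second and 2 and 0 without the first and the second SRPIN340 library, 3 without either Endovion library and 2 without either library of the combined treatment. In nascent RNA ZNF587B alone fell, where 0.191% of all genes did. It had 45 and 43 T>C reads in control and 12 and 20 with SRPIN340 (-1.60 ± 0.42, adjusted p = 0.0416, edgeR). ZNF587B was not called in total RNA with SRPIN340, and it was not among the members that rose in nascent RNA with THZ531. This fall and its rise in total RNA with THZ531 thus differ in both compound and measure and are not opposite results. The fall did not pass without the second control library (adjusted p = 0.323, edgeR) or the first or second SRPIN340 library (0.377 and 0.16), nor without the first THZ531 library (0.0553) or either library of the combined treatment (0.0501 each).

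Along the chromosome 220 of the 241 members lie in 7 clusters of 15 or more genes, with gaps under 1 Mb between neighbours. The clusters, numbered from the short arm, span 7.07 to 9.79 Mb, 11.5 to 12.6 Mb, 19.7 to 24.1 Mb, 36.2 to 37.8 Mb, 43.5 to 45.1 Mb, 51.6 to 53.6 Mb and 55.5 to 58.5 Mb in hg38. The median log2 fold change with THZ531 in total RNA was below 0 in each, from -0.23 in the fourth to -0.95 in the second. Of the 25 members tested in the third cluster 8 fell and 5 rose. Of the 21 members tested in the second 10 fell and 0 rose, and of the 14 in the first 6 fell and 0 rose. The seventh and largest had 54 members tested, of which 20 fell and 5 rose. Of the 19 members tested outside these clusters 10 fell and 2 rose, with a median of -0.58, so the fall was not confined to the clusters. Among all genes tested 14.1% fell and 16.6% rose. With THZ531 and Endovion the median of the third cluster was 0.02, with 8 members that rose and 3 that fell, and the other 6 medians were below 0. Outside the clusters the median was then -0.48, with 7 members that fell and 1 that rose. Among all genes 12.4% fell and 16.6% rose. Neighbours could move apart. In the fourth cluster ZNF566 (chr19:36445119-36489902, minus strand) and ZNF382 (chr19:36604817-36634114, plus strand) fell, and ZNF529 (chr19:36534774-36605276, minus strand), which overlaps the start of ZNF382 on the opposite strand, rose with THZ531. No difference between clusters was tested.

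**Figure D4:**
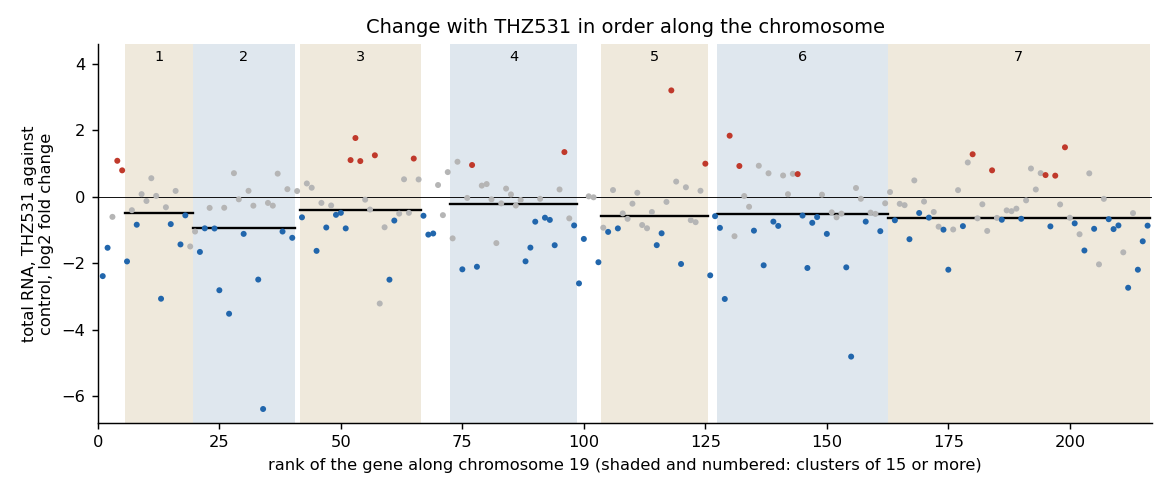
Log2 fold change of total RNA with THZ531 (vertical axis) for the 216 members tested, in order along chromosome 19 (horizontal axis, rank), red for higher and blue for lower past the test. Shaded bands are the 7 clusters and black lines their medians, from -0.23 in cluster 4 to -0.95 in cluster 2.

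Several members have more than one separate 3′ end, and these ends were looked at one by one after the sums had been seen. An end was called upstream where it lay within the first 75% of the gene's span and last where it lay beyond. With THZ531, 83 of 204 last ends of members had fewer reads past the test and 16 had more, against 15.7% and 14.9% of 12986 last ends of protein-coding genes. Of 65 upstream ends of members 10 had fewer and 10 had more, against 7.68% and 26.8% of 2345. By place in the gene, the members' median log2 fold change was 0.62 for 13 ends up to 25% of the span, -0.25 for 15 up to 50%, -0.31 for 37 up to 75%, -0.62 for 37 up to 95% and -0.61 for 167 beyond. Over all protein-coding genes it went from 0.48 up to 25% of the span to -0.05 beyond 95%. The places with 13 and 15 ends are thinly filled, and without them the members' medians go from -0.31 to -0.61. With THZ531 and Endovion, 56 last ends had fewer reads and 20 more (13.9% and 15.4% over all), and 7 upstream ends had fewer and 14 more (7.38% and 21.2% over all). The members' medians were then 0.98 up to 25% of the span, 0.40 up to 50%, -0.09 up to 75%, -0.64 up to 95% and -0.30 beyond, and over all protein-coding genes the median was 0.25 up to 25% and -0.04 beyond 95%. Without the second THZ531 library 58 last ends and 10 upstream ends were called with THZ531, and the upstream median, -0.23 with all libraries, was 0.20, and without the first control library it was 0.18. Without the second control library or the first library of the combined treatment, 45 last ends and 12 upstream ends were called with THZ531 and Endovion.

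**Figure D5:**
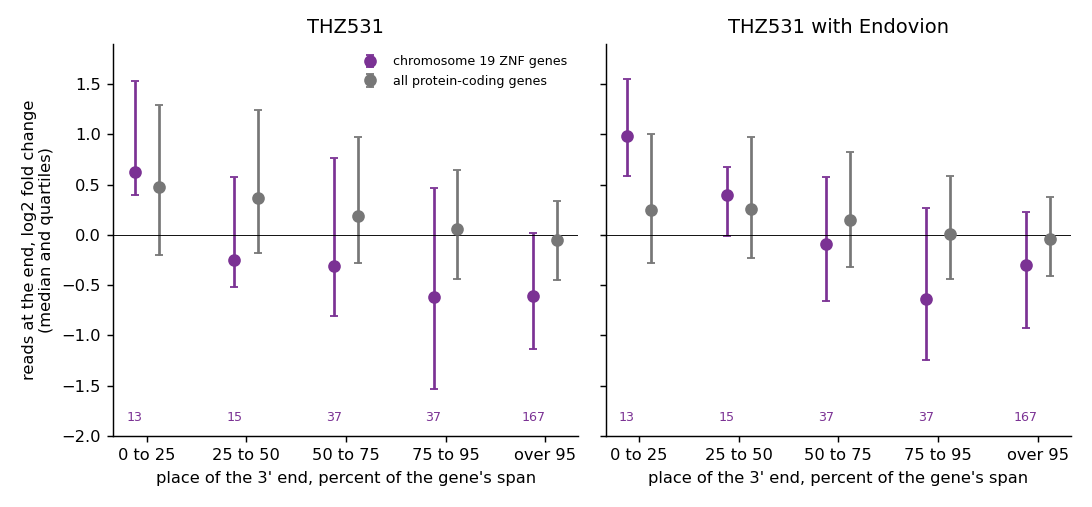
Log2 fold change of the reads at single 3′ ends (vertical axis) by the place of the end in the gene (horizontal axis, percent of the span) with THZ531 and with THZ531 and Endovion; dots are medians, bars quartiles, and purple numbers the members' ends. Members go from 0.62 up to 25% of the span to -0.61 beyond 95% with THZ531, and all protein-coding genes from 0.48 to -0.05.

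ZNF493 shows the pattern within one gene. Its first end (chr19:21397385-21398934) had 131 and 82 reads in control and 299 and 287 with THZ531 (1.65 ± 0.23, adjusted p = 6.38e-05, edgeR). Its last end (chr19:21424985-21427573) had 48 and 51 in control and 10 and 11 with THZ531 (-2.07 ± 0.41, adjusted p = 0.0013, edgeR). The upstream ends held most of the reads of the gene, and their sum rose. With SRPIN340 the first end of ZNF493 had 276 and 335 reads and the last end 85 and 112. With Endovion the first end had 299 and 192 reads and the last end 84 and 68. ZNF726 was read almost entirely at upstream ends, where chr19:23920091-23921541 had 338 and 275 reads in control and 510 and 579 with THZ531 (1.03 ± 0.22, adjusted p = 0.002, edgeR), while chr19:23943598-23944713 at its far end had 4 and 2 in control and 3 and 3 with THZ531. The reads of ZNF738 also came from upstream ends, mainly chr19:21377484-21379300 (189 and 154 reads in control and 453 and 519 with THZ531). Among the members that rose with a single tested end at the annotated end of the gene were ZNF227, ZNF708 and ZNF587B.

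Of the 17 members with both an upstream and a last end that could be tested against each other, 6 shifted towards the upstream end with THZ531 and none towards the last, where 21.2% of 1070 protein-coding genes shifted upstream and 6.07% towards the last. Those that shifted upstream were ZNF493 (2.69 ± 0.43, adjusted p = 7.04e-04, edgeR), ZNF264 (4.06 ± 0.80, adjusted p = 0.00295, edgeR), ZNF527 (4.38 ± 1.03, adjusted p = 0.00826, edgeR), ZNF175, ZNF793 and ZNF606. Other members had values towards the last end, of which ZNF544 had the smallest p and did not pass (-1.51 ± 0.57, adjusted p = 0.069, edgeR). In ZNF264 the upstream end at chr19:57194864-57194969 had 1 and 1 reads in control and 15 and 11 with THZ531, and the last end at chr19:57212982-57222846 had 1307 and 1202 in control and 727 and 462 with THZ531. ZNF175 (OTK18) had 12 and 3 reads at its first end in control and 28 and 18 with THZ531, while its last end had 166 and 104 in control and 35 and 46 with THZ531. In ZNF793, one of the 6 falls with the smallest p, the upstream end had 87 and 71 reads in control and 78 and 78 with THZ531, while the last had 1321 and 1208 in control and 438 and 274 with THZ531. With THZ531 and Endovion ZNF264, ZNF527, ZNF493 and ZNF568 shifted upstream, 4 members against 13.3% of all genes. Between 3 and 5 of the 19 to 21 members tested passed with THZ531 when a library was left out, with 3 without the second control or the second THZ531 library, and 1 to 4 with both compounds, with 1 without the second control library and 2 without either library of the combined treatment.

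Promoter sequence was compared for the 213 members found in the RefSeq table (GRCh38.p14; 250 bases before to 50 after the start of each gene), with each motif searched on both strands. The letters CCGGAAGT, the core of sites for ETS factors, were found in 20.7% of the members' promoters, in 14.4% of 209 promoters of other ZNF genes and in 6.19% of all 15842 promoters. CCAAT was found in 53.5%, 44.02% and 36.4%, and TATAAA in 1.88%, 3.83% and 9.63%. Of the members tested in total RNA, 42 hold CCGGAAGT, with a median log2 fold change of -0.18 with THZ531, 12 that fell and 4 that rose, and 149 do not, with a median of -0.56, 61 that fell and 12 that rose. By CCAAT, the 99 members with it had a median of -0.48, with 40 that fell and 13 that rose. The 92 without it had a median of -0.51, with 33 that fell and 3 that rose. Among all genes 14.1% fell and 16.6% rose. Neither split by motif was tested. The promoters of the 2 members that rose and the 2 that fell with the smallest p among those with CCGGAAGT are printed with the motif, or its reverse complement ACTTCCGG, in capitals, to show where it sits. The start of ZNF587B in that table lies inside the longer gene of the annotation used for the reads.
ZNF587B (chr19:57830049-57830348, plus strand): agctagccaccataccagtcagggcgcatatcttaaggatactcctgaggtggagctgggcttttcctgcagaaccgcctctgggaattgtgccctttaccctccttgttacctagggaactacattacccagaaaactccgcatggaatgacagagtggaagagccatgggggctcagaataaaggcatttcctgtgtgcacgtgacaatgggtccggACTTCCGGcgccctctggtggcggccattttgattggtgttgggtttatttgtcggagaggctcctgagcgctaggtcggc
ZNF460 (chr19:57279732-57280031, plus strand): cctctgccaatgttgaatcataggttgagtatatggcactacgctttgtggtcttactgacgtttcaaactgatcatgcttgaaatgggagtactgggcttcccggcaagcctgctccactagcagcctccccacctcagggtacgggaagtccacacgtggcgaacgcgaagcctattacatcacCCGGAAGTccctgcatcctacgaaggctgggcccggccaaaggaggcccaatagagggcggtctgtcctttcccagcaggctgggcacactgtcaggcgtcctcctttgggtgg
ZNF264 (chr19:57191250-57191549, plus strand): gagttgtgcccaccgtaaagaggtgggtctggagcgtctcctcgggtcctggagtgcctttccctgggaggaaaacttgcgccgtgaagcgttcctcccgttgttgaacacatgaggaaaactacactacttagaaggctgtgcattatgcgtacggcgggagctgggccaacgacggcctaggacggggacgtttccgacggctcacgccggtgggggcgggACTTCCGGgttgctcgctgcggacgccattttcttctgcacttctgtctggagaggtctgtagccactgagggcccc
ZNF324 (chr19:58466830-58467129, plus strand): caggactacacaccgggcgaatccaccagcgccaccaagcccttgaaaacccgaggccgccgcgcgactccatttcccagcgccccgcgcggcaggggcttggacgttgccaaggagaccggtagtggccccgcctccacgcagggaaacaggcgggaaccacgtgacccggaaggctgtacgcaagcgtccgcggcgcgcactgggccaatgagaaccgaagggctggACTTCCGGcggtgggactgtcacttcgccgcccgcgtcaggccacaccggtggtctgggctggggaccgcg
The first base of the motif lay 64 bases before the start in ZNF460 and 31, 27 and 21 bases before it, as ACTTCCGG, in ZNF587B, ZNF264 and ZNF324. ZNF460 rose from 3.17 and 3.62 to 8.59 and 7.88 RPM with THZ531 (1.28 ± 0.30, adjusted p = 0.00458, edgeR), and ZNF324 fell from 16.1 and 13.2 to 6.71 and 4.83 (-1.34 ± 0.21, adjusted p = 2.73e-04, edgeR).

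The members' genes are shorter and have fewer exons than most. Their median span was 24.0 kb and their median exon number 5 for the transcript with most exons, against 34.5 kb and 10 for 12883 protein-coding genes, while their best-covered interval was longer (1614 against 1288 bases) and its T content level with the rest (29.9% and 30.0%). Across the 216 members the THZ531 change in total RNA had a Spearman rho of 0.01 with span, -0.26 with interval length and 0.27 with T content, where all protein-coding genes gave 0.10, 0.00 and 0.32. The points share the same 4 libraries, and these values are descriptions. In the third of members with the longest intervals 39 of 72 fell and 5 rose, and in the third with the shortest 15 fell and 7 rose.

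The proteins that KRAB domains work through were listed as 31 corepressor genes, of which 30 were tested in total RNA. With THZ531, 12 of them rose and 4 fell, with a median log2 fold change of 0.23, against 16.6% and 14.1% of all genes. TRIM28 itself, the shared partner of KRAB domains, had 98.1 and 108 RPM in control and 123 and 123 with THZ531 and was not called. SETDB1 rose (0.38 ± 0.12, adjusted p = 0.0286, edgeR), as did CBX1, which encodes HP1β (0.83 ± 0.16, adjusted p = 0.00128, edgeR), and members of the NuRD complex such as RBBP7, which went from 177 and 135 to 262 and 313 RPM (0.88 ± 0.14, adjusted p = 4.08e-04, edgeR), CHD4, MTA1, MTA2 and HDAC2. Of the other NuRD genes listed, CHD3 (-0.34 ± 0.14, adjusted p = 0.067, edgeR), RBBP4 (-0.14 ± 0.10, adjusted p = 0.321, edgeR) and HDAC1 (0.21 ± 0.10, adjusted p = 0.114, edgeR) did not pass. DNMT1, DNMT3B, UHRF1, SUV39H2 and SUMO2 completed the genes that rose. The 4 that fell were MPHOSPH8 and TASOR, which encode 2 subunits of the HUSH silencing complex, the remodeller SMARCAD1 and the methyltransferase SUV39H1. MPHOSPH8 stood at 51.4 and 54.4 RPM in control and 19.9 and 16.5 with THZ531 (-1.54 ± 0.14, adjusted p = 4.49e-06, edgeR). TASOR stood at 27.2 and 20.6 in control and 8.11 and 9.01 with THZ531 (-1.49 ± 0.19, adjusted p = 5.88e-05, edgeR). The groups did not overlap for either gene, and 32.3% of all genes tested likewise lay below control in both THZ531 libraries. PPHLN1, which encodes another HUSH subunit, had a log2 fold change of -0.04 ± 0.13, adjusted p = 0.835 (edgeR) and did not pass. With THZ531 and Endovion MPHOSPH8 (-1.39 ± 0.14, adjusted p = 1.48e-05, edgeR) and TASOR (-1.06 ± 0.19, adjusted p = 7.78e-04, edgeR) fell and 9 genes rose, against 12.4% and 16.6% of all genes. Endovion raised 4 (ATF7IP, CBX1, MTA1 and RBBP7) and lowered none, where 8.9% of all genes rose and 2.54% fell. With SRPIN340 none was called, where 1.82% of all genes rose and 0.143% fell. In nascent RNA 29 of the list were tested. Of these, 2 rose (DNMT1 and MTA2) and 2 fell (ATF7IP and SMARCAD1) with THZ531, against 3.86% and 3.6% of all genes. With both compounds 3 rose and 3 fell, against 4.61% and 3.49%. DNMT1 rose in nascent RNA with all 4 treatments, from 0.94 ± 0.22, adjusted p = 0.0162 with SRPIN340 to 1.34 ± 0.22, adjusted p = 2.42e-05 with THZ531 and Endovion (edgeR). These comparisons share the control libraries, where total RNA of DNMT1 stood at 151 and 74.6 RPM. In total RNA DNMT1 did not pass with Endovion (adjusted p = 0.0581, edgeR) or SRPIN340 (adjusted p = 0.179, edgeR).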

How the data were processed

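RNA of 22RV1 cells was alkylated, made into 10 libraries of 3′ ends with molecular identifiers and read as single-end reads of 101 bases. The authors mapped the reads to hg38 and counted conversions with SLAM-DUNK. They deposited, for each 3′ end interval and library, counts of reads and of T>C reads without normalization. The deposited conversion rate, a fraction of covered T positions, was not used. Whether those identifiers reduced the counts, and whether reads were counted by strand, is not given in the sources used here. The T content of 5000 of 5000 intervals drawn equalled that of hg38.

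Intervals were matched to GENCODE v44 transcripts, which took 92826 of 96427 intervals and left out 3.53% of T>C reads. The best-covered of overlapping intervals was kept, because 48.8% of T>C reads were otherwise counted again, and the kept intervals were summed per gene. The members, lists and tests were chosen with earlier results of these data known.

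T>C reads and all reads per gene were each fitted in edgeR 4.0.16 under R 4.3.3 (TMM, filterByExpr, robust quasi-likelihood fit of group means over all 10 libraries, 5 residual degrees of freedom), and the labelled share as the interaction of group and read class with library as block. Upstream and last ends were fitted in the same way per interval, after the data had been seen. P-values were adjusted over all features (Benjamini-Hochberg), and called means an adjusted p under 0.05. Errors of fold changes are standard errors. Levels were scaled by TMM library sizes. In the fits of the share and of upstream against last ends, each class of reads was scaled by its own. DESeq2 1.42.0 was run as an alternative, and the fits were tested on simulated data. Replicates differed by more than sampling noise in every group. No value was set against counting error alone.

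Genes are named by rule: for each comparison and measure the 6 smallest p in each direction among those called, or the 2 smallest where none was; the 5 highest T>C levels in control; the 5 highest and lowest labelled shares among members with 200 reads in both control libraries; 10 members with a textbook role; and corepressors that were called, of which 1 is not reported here. Genes named for their ends, promoters or neighbours, and corepressors named though not called, were chosen after their values were seen.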

Additional observations from a re-analysis of the deposited data

Results flagged for a closer look

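The effect of THZ531 on the nascent RNA of ZNF227 differed with and without Endovion, by -3.19 on the log2 scale (edgeR interaction test, adjusted p = 0.028). Its T>C reads numbered 9 and 1 in the control libraries and 32 to 55 in the 6 libraries of the groups with Endovion, THZ531 or both. In total RNA the same difference was -2.47 ± 0.67 (adjusted p = 0.276, edgeR). The control libraries held 160 and 39 reads of the gene. Without the first of them the difference was -5.20 (adjusted p = 0.0018) and without the second -2.48 (adjusted p = 0.281), both in edgeR.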

How the results depend on the processing

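Of 165 counts of members called under an alternative with all libraries, 140 stayed within 1.5 times. All 12 genes named for THZ531 in total RNA and all 12 named for THZ531 with Endovion kept their call under every alternative and with every library left out. Over all named genes 487 of 534 values kept their side of the threshold with all libraries, 524 of 620 did so with a library left out, and none changed sign. The members' median in total RNA with THZ531 ranged from -0.71 to -0.47. The median of upstream ends with THZ531 was -0.23 and turned to 0.20 without the second THZ531 library and to 0.18 without the first control library (71 and 70 ends, with all libraries 65). A lone library left in a group was assumed to vary like the other groups.

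With the plain sum of all intervals, 5 members were called in nascent RNA with THZ531 (19 in the main result) and 3 with both compounds (13). It was 1 with Endovion (2), 0 with SRPIN340 (1) and 0 for the difference with Endovion (1), and 0 in total RNA with SRPIN340 (5). Of all 10736 genes then tested in nascent RNA, 129 rose and 118 fell with THZ531 and 170 and 103 with both compounds. With Endovion 41 rose and 5 fell, with SRPIN340 2 and 0, and for the difference 0 and 2. In total RNA 10 of 15115 genes rose and 0 fell with SRPIN340. DESeq2 called 0 members in nascent RNA with SRPIN340, 1 with Endovion and 0 for the difference, against 0.664%, 1.88% and 0.0804% of all genes. In total RNA it called 8 with SRPIN340 and 1 for the difference (0), against 5.78% and 1.23% of all genes. Without the filter on low counts it was 3 in nascent RNA with SRPIN340, 11 in total RNA, 2 for the difference in total RNA and 1 for the labelled share with both compounds (0). Of all 16618 genes then tested in nascent RNA, 127 rose and 27 fell with SRPIN340, and of 21171 in total RNA 1000 rose and 211 fell. The difference in total RNA was called above 0 for 62 genes and below 0 for 568, and the labelled share for 26 and 181. With only the groups compared it was 0 in nascent RNA with SRPIN340, 1 with Endovion and 0 in total RNA with SRPIN340. In the same order, 30 of 9276 genes rose and 2 fell, 161 of 9033 rose and 35 fell, and 3 of 14111 rose and 2 fell. Then 3 (6) and 2 (4) members shifted between upstream and last ends with THZ531 and with both compounds. Of 1070 genes, 158 and 83 shifted upstream and 42 and 24 towards the last end. Without genes over 20% T>C in control, and with scaling by all reads, 1 member was called in nascent RNA with Endovion. Of all genes, 179 of 9609 rose and 48 fell in the former, and 166 of 9946 rose and 95 fell in the latter. Scaling by all reads moved the median labelled share change of all genes with Endovion from -0.02 to -0.19.

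The replicate numbers have no stated pairing. Deviations of same-numbered libraries correlated between -0.15 and 0.20 over groups in total RNA. With the replicate block 100 members were called in total RNA with THZ531 (102), 2 with SRPIN340 (5) and 1 in nascent RNA with Endovion (2), and no other count moved by over 1.5 times. Of all 14689 genes 2350 rose and 2041 fell with THZ531 and 90 and 6 with SRPIN340. In nascent RNA 214 of 9946 genes rose and 75 fell with Endovion. Control numbers crossed, chosen after seeing the data, gave 108 with THZ531 and 10 with SRPIN340 in total RNA.

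With a library left out, the calls ranged in nascent RNA from 4 to 20 with THZ531, 5 to 15 with both compounds, 1 to 3 with Endovion, 0 to 3 with SRPIN340 and 0 to 2 for the difference; in total RNA from 64 to 107, 49 to 87, 2 to 30, 0 to 13 and 0 to 5; in the labelled share from 0 to 1 with both compounds. Last ends ranged from 58 to 99 with THZ531 and 45 to 77 with both compounds, upstream ends from 10 to 21 and 12 to 23, and shifts between them from 3 to 5 and 1 to 4.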
